A study of Mus musculus with 16 samples.

Results

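The receptors for interleukin-1 (IL-1) and interleukin-18 (IL-18) and their shared adaptor were examined in hematopoietic stem cell (HSC) fractions of mouse bone marrow. The 6 genes were Il18r1, Il18rap, Il1rl1, Il1r1, Il1rap and Myd88, and every probe annotated to them was taken: 11 of 25697 probes on the array, for 5 of 16593 named genes. Il1rl1, the receptor of IL-33, had no annotated probe and was not analysed here. The genes were chosen from measured differences of these same arrays between groups, so the differences of the members are given below as a description, with no test. Of the 11 probes, 7 lay above background on at least 4 of the 16 arrays and entered the fit across all 15551 such probes. The other 4 all belonged to Il1rap.

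The arrays came from C57Bl/6 mice of 2 genotypes, each sorted into a CD34- fraction, given as long-term HSC, and a CD34+ fraction, given as short-term HSC, with 4 independent arrays in each of the 4 groups and RNA of 2 mice pooled on each array. Control mice were IFNgamma-/- and the other mice were IFNgamma-/-xCD70TG, so all mice lacked interferon-gamma. CD70 is the ligand of the TNF-family receptor CD27, and the cell type that carries the transgene is not given in the labels. The labels' sort protocol writes both fractions as CD34-Flt3-, against their names. Cd34 transcript did not separate them: it was 9.64 ± 0.09 (SD, n = 4) in control CD34- and 9.47 ± 0.22 in control CD34+ arrays, and 9.54 ± 0.16 and 9.44 ± 0.17 in those of CD70TG mice. Flt3, a marker that the stated gate excludes, was 6.46 and 6.71 in control arrays and 8.39 and 7.78 in CD70TG arrays. Values are in the log2-like units of the deposited table, where 1 unit stands for a doubling provided that the logarithm has base 2. Precision is limited by the number of arrays, and the SE of a difference between a pair of groups had a median of 0.11 over all tested probes.

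IL-18 is a cytokine of the IL-1 family that is made as a precursor and cut by caspase-1. It binds the chain encoded by Il18r1, and signalling starts when the accessory chain encoded by Il18rap joins the complex. IL-1 works the same way through Il1r1 and the accessory chain Il1rap. All of these chains carry a Toll/IL-1 receptor domain that recruits the adaptor MyD88, which passes the signal through IRAK kinases and TRAF6 to NF-kB and MAP kinases. In marrow, IL-1 is known to drive HSC towards myeloid output.

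Most of these receptor genes lie side by side. On chromosome 1 of the GRCm38.p6 assembly 6 protein-coding genes follow each other within 467016 bases, in the order Il1r2, Il1r1, Il1rl2, Il1rl1, Il18r1 and Il18rap. Il18r1 spans chr1:40465552-40500854 and starts 133 bases after Il1rl1 ends, and Il18rap spans chr1:40515362-40551707. Il1rap lies on chromosome 16 and Myd88 on chromosome 9. The sequence before the start of both IL-18 receptor genes is shown because these neighbours behaved so differently on the arrays, and that of Nfkbia and Tnfaip3 because these NF-kB feedback genes differed between the fractions as Il18r1 did. All are from RefSeq (GRCm38.p6), 5′ to 3′ on the strand of the gene, with matches on either strand to 3 motifs in capitals. They cover chr1:40465419-40465551 (plus strand, the 133 bases between Il1rl1 and Il18r1), chr1:40515112-40515361 (plus strand), chr12:55492648-55492897 (minus strand) and chr10:19015411-19015660 (minus strand), each ending at the base before the gene.
Il18r1: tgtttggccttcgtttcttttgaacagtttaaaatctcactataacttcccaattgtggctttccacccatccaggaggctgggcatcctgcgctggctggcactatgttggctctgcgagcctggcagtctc
Il18rap: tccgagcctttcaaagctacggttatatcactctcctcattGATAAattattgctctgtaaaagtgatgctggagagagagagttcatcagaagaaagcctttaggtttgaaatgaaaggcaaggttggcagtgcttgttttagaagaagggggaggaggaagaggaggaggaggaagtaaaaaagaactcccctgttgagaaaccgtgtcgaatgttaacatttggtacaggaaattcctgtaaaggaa
Nfkbia: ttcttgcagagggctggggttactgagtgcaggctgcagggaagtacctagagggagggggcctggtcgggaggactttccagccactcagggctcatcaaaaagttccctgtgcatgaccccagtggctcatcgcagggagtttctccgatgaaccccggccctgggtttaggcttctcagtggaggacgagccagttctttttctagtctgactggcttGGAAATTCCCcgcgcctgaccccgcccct
Tnfaip3: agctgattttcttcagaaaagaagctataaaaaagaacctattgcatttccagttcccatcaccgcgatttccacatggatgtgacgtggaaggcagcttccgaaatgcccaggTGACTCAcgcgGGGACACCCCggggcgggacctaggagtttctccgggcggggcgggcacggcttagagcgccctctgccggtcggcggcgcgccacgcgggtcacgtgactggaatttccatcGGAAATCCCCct
In the printed sequences the NF-kB consensus had no match before Il18r1 or Il18rap, 1 before Nfkbia at 20 to 29 bases and 2 before Tnfaip3 at 3 to 12 and 116 to 125 bases. Over all annotated starts of the members it matched once, before 1 of 2 starts of Il1r1. Of the NF-kB genes that rose in both genotypes, Nfkb2 had matches before each of 3 starts (4, 1 and 1, in windows that overlap in part) and Nfkbie had 1, while Bcl3 and the other start of Tnfaip3 had none. Relb, which also rose in both, had no window in the set and was not searched. The NF-kB consensus occurred in 3.9% of 32851 windows of 250 bases before annotated gene starts. GATAA, the core of GATA sites, matched once before Il18rap (22.6% of windows), and TGANTCA, the AP-1 motif, matched at 1 place before Tnfaip3 (6.75% of windows). A match is a description of letters, and no match concerns these windows only.

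Il18r1 was far higher in the fraction labelled CD34+ in both genotypes. In control CD34- arrays its values were 8.26, 8.08, 8.68 and 8.47, and in control CD34+ arrays they were 12.47, 12.52, 12.39 and 12.27. In CD70TG mice they were 7.96, 8.59, 8.42 and 8.77 in CD34- arrays against 11.88, 11.93, 12.22 and 12.07 in CD34+ arrays. No array of one fraction came near any array of the other. The difference between fractions was 4.04 ± 0.16 (SE, 95% interval 3.71 to 4.37) in control mice, the highest of all 15551 tested probes, and 3.59 ± 0.16 (3.27 to 3.92) in CD70TG mice, where it ranked 2. Across all probes 7.14% and 5.05% passed the threshold between fractions in control and CD70TG mice, and of the 7 member probes Il18r1 was the 1 that did so in each. These are bulk samples, in which more cells with the transcript and more transcript per cell cannot be told apart.

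**Figure D1:**
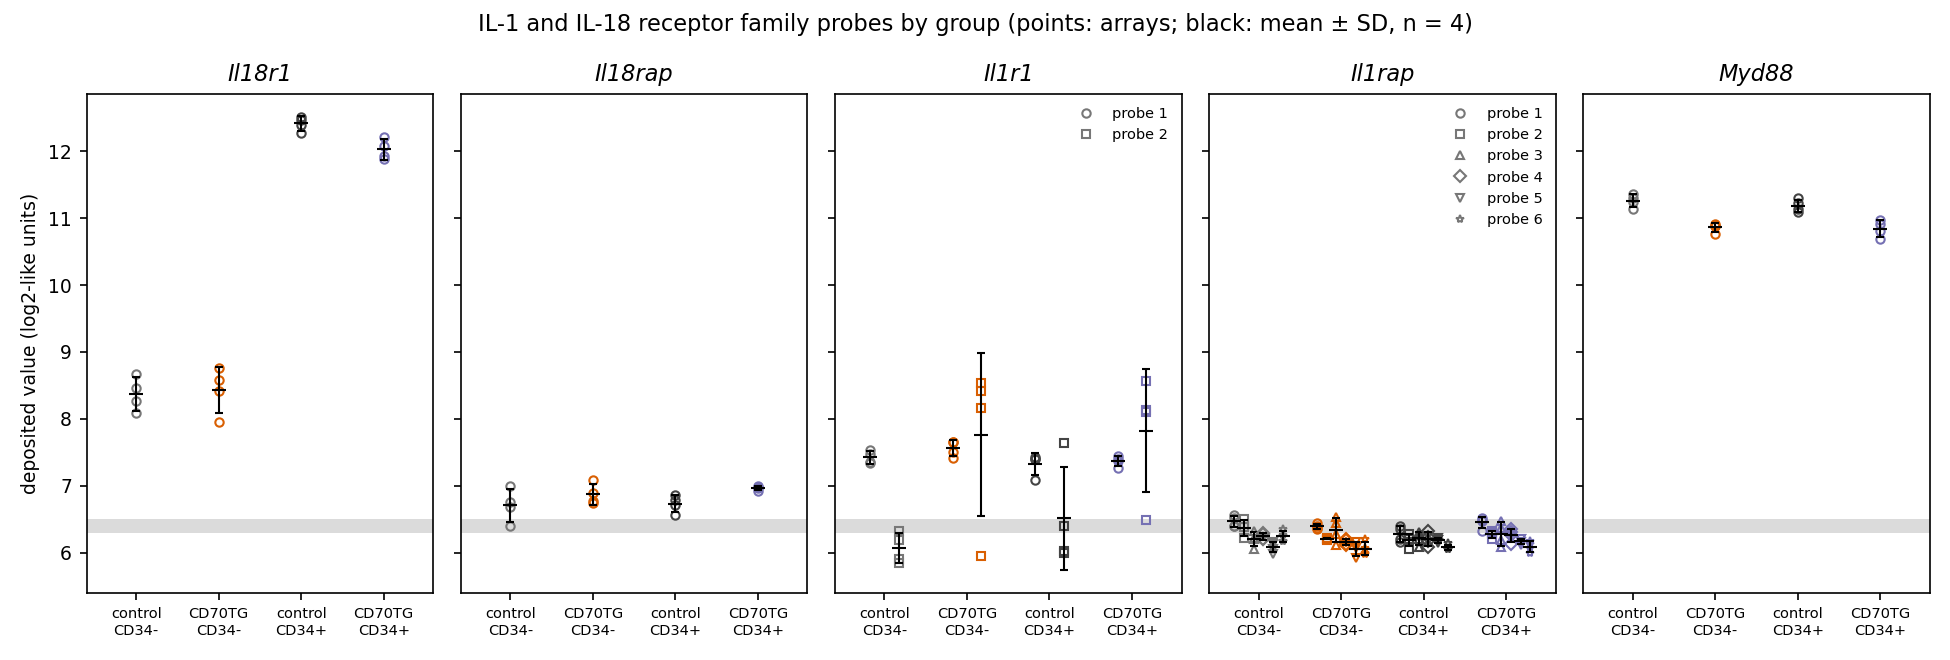
Deposited values (log2-like units) of all 11 probes on the 16 arrays, by gene and group, with open points for arrays, black bars for mean ± SD (n = 4) and a grey band for the range of the arrays' background limits (6.30 to 6.51). Il18r1 separates the fractions, Myd88 is lower in CD70TG arrays, Il1r1 probe 2 is scattered, and the Il1rap probes lie at or near the band.

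The order of the 4 groups for Il18r1 was control CD34+, CD70TG CD34+, CD70TG CD34- and control CD34-. Both CD34- groups did not differ beyond their spread (8.37 ± 0.26 and 8.43 ± 0.35, SD, difference 0.06, 95% interval -0.27 to 0.39). In the CD34+ fraction CD70TG arrays were lower than control arrays by -0.39 ± 0.16 (SE, -0.71 to -0.06). The groups did not overlap, but this difference did not pass the threshold that 16.1% of all probes passed, except with array weights or without replicate 1 of CD70TG CD34-. The difference of the genotype effect between fractions was -0.45 (-0.91 to 0.02), where 0.289% of all probes passed and no member probe did. The 95% interval left out 0 for 1 of the 7, Il1rap probe 1 (0.25, 0.06 to 0.44).

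Lymphoid cells also carry Il18r1, and markers of other cell types were set beside it. The mean level of 14 tested T, NK and innate lymphoid markers was 7.25 and 7.24 in control CD34- and CD34+ arrays and 7.18 and 7.21 in those of CD70TG mice, with 6, 5, 6 and 6 of 21 genes above background on no array in control CD34-, CD70TG CD34-, control CD34+ and CD70TG CD34+. Of the 14, 2 rose (Thy1 by 0.93 and Nkg7 by 0.655) and 3 fell (Cd6, Klrd1 and Rora) in CD34+ arrays of control mice. In CD70TG mice 1 rose (Thy1, by 1.10) and 1 fell (Rora). Among all named genes, for these and the marker counts below, 3.66% rose and 4.08% fell in control mice. In CD70TG mice 1.49% of them rose and 4.33% fell. Of the genes that define T and NK cells, Cd3g and Ncr1 lay above background on 0 of 4 arrays in every group, Cd3d on 1 to 2 and Cd3e on 1 to 3, and Klrb1c on all 4, with group means of 6.57 to 6.93. Nkg7 reached 10.64 to 11.54 as a group mean. Of 15 tested markers of mast cells, basophils and eosinophils, CD34+ arrays had 2 higher and 1 lower in control mice and 7 higher and 2 lower in CD70TG mice. Hdc was lower in both control and CD70TG mice (-1.35 and -1.48), while Cpa3 (2.295 and 1.57) and Fcer1a (1.71 and 1.75) were higher in both. Macrophage and neutrophil markers mostly went the other way, with 7 of 13 and 10 of 13 lower in control CD34+ arrays and none higher. In CD70TG mice 11 of 13 macrophage markers were lower and 1 was higher (Cx3cr1, by 0.84). Of the 13 neutrophil markers 12 were lower there and 0 higher. The part of these cells in the Il18r1 difference was not tested.

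Il18rap, the accessory chain without which IL-18 binding does not signal, did not follow Il18r1. Its values were 6.40, 7.003, 6.75 and 6.68 in control CD34- arrays and 6.87, 6.79, 6.57 and 6.71 in control CD34+ arrays. In CD70TG mice they were 7.09, 6.75, 6.77 and 6.89 in CD34- and 6.93, 7.01, 6.97 and 6.98 in CD34+ arrays. All 16 arrays were above background, and they ranged from 6.40 to 7.09 with no group apart from the rest except that CD70TG CD34+ lay above control CD34+. The difference between fractions was 0.03 (95% interval -0.20 to 0.25) in control and 0.10 (-0.13 to 0.32) in CD70TG mice, and both intervals end far below the Il18r1 difference. Il18rap lay close to the arrays' background limits (6.30 to 6.51), where differences are compressed, so both genes are not on an equal scale. Averaged over fractions CD70TG arrays were higher by 0.20 ± 0.08 (SE), past the threshold as were 36.6% of all probes, but this was lost in 16 of 23 alternative settings.

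**Figure D2:**
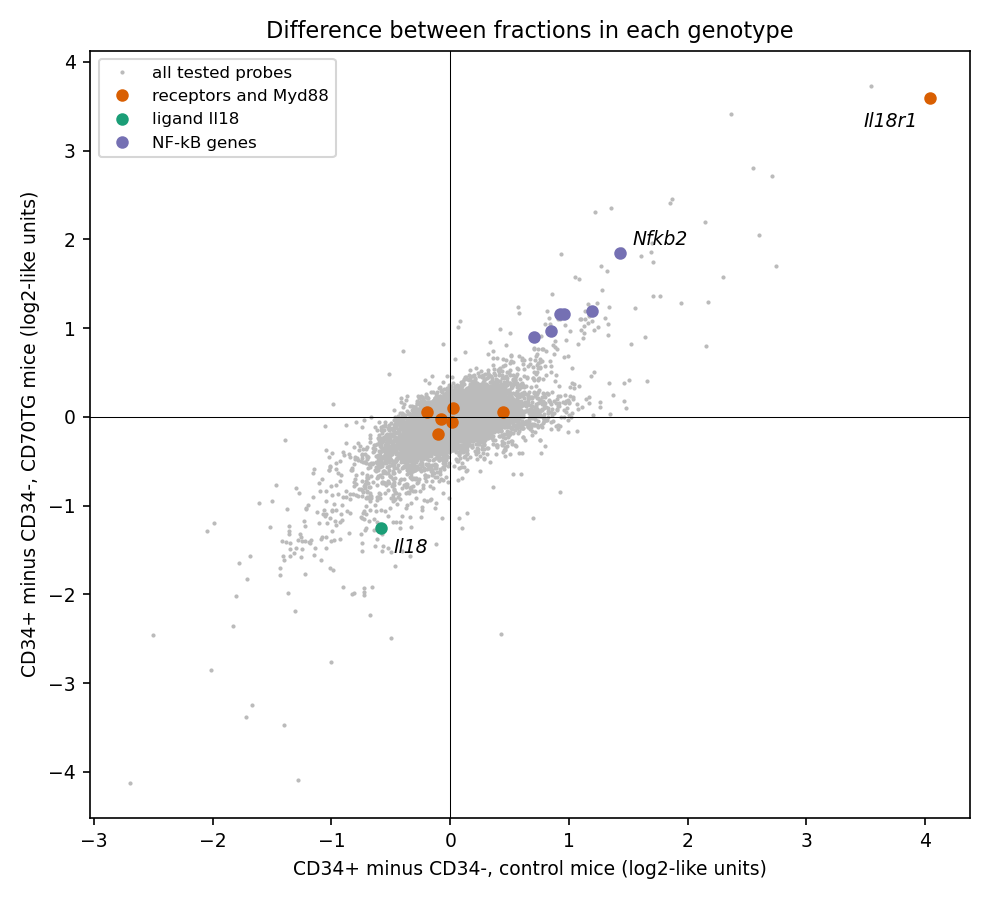
Difference between the fractions (CD34+ minus CD34-, log2-like units) in control mice (horizontal axis) and CD70TG mice (vertical axis) for all 15551 tested probes, with the member probes, the ligand Il18 and 6 NF-kB genes coloured. Il18r1 lies at 4.04 and 3.59, while the other 6 member probes lie near 0, and both axes share the arrays' common scale.

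The IL-1 receptor Il1r1 was measured by 2 probes that disagreed. Probe 1 was flat, with values of 7.09 to 7.66 over all 16 arrays and group means of 7.43, 7.56, 7.33 and 7.37 in control CD34-, CD70TG CD34-, control CD34+ and CD70TG CD34+. Probe 2 read 5.91, 6.20, 6.33 and 5.85 in control CD34- arrays and 8.16, 5.96, 8.41 and 8.54 in CD70TG CD34- arrays. Its CD34+ values were 6.40, 6.02, 5.998 and 7.64 in control and 8.11, 6.49, 8.13 and 8.57 in CD70TG mice. Most CD70TG arrays were high and most control arrays low, but replicate 2 was low in both CD70TG groups and replicate 4 of control CD34+ was high. Its difference between genotypes in CD34- arrays was 1.70 ± 0.50 (SE). It lay past the threshold, as did 25.9% of all probes, but the probe was above background on 7 CD70TG and 2 control arrays and so entered the fit through the groups where it is high, and nothing is read from the call. Probe 2 was not above background on any control CD34- array. The mean of the CD70TG CD34- arrays (7.77) lay 1.36 units above the mean background limit of the control CD34- arrays (6.41). Replicate 2 of CD70TG CD34- lay below its own limit. In CD34+ arrays the difference was 1.31 ± 0.50 and did not pass.

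**Figure D3:**
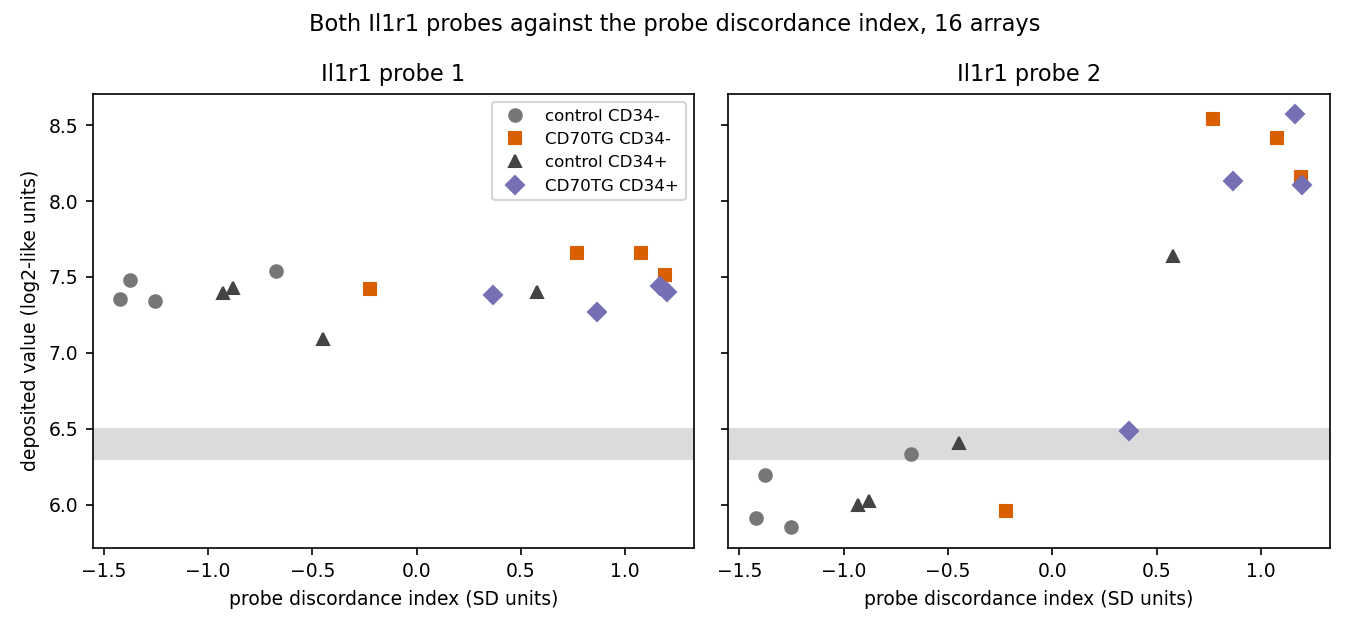
Deposited values (log2-like units) of both Il1r1 probes on the 16 arrays against the probe discordance index of the array (SD units), with symbols for the 4 groups and a grey band for the arrays' background limits. Probe 1 is level across the index, while probe 2 is high, at 7.64 or more, only on arrays at the right end of the axis.

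Probe 2 moved with a property of the arrays that other genes show too. For 1822 genes with exactly 2 tested probes, the difference between both probes was taken on each array, members and listed genes left out. The first axis of these differences held 52% of their variance, and an array's place on it, scaled to an SD of 1, is called the probe discordance index. The index averaged -1.18 ± 0.34 (SD) in control CD34-, 0.70 ± 0.64 in CD70TG CD34-, -0.42 ± 0.70 in control CD34+ and 0.90 ± 0.39 in CD70TG CD34+ arrays. Across the 16 arrays probe 2 correlated with it at r = 0.92 (0.88 with group means removed), and probe 1 at 0.28 (0.32). With the index as a covariate the probe 2 difference in CD34- arrays changed sign to -0.95 and did not pass. It also missed the threshold without replicate 1, 3 or 4 of CD70TG CD34-. The index and the genotype overlap in this design, and their parts were not tested.

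Il1rap, the accessory chain that IL-1, IL-33 and IL-36 receptors share, was at or near background on all 6 probes. Their values on the 16 arrays lay between 5.92 and 6.56, where the arrays' background limits were 6.30 to 6.51. Probe 1, above background on 11 arrays, had group means of 6.47, 6.40, 6.28 and 6.45 in the same order of groups, and neither it nor probe 3 passed the threshold in the fit of all arrays with equal weight. The difference of probe 1 between genotypes in CD34+ arrays was 0.18 (95% interval 0.04 to 0.31), which passed with array weights and without replicate 2 of control CD34+ or of CD70TG CD34+, and between fractions of control mice it was -0.19 (-0.33 to -0.05). Probe 3 passed on the average over fractions with array weights. It was above background on 3 CD70TG arrays and 1 control array, so it entered the fit mostly through the genotype where it is higher. Nothing is read from that call. Probe 3 is annotated to another transcript accession of the gene than the other 5 probes. Differences this close to background are compressed.

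Myd88, the adaptor on which all these receptors depend, was bright and lower in CD70TG mice. Its values were 11.31, 11.36, 11.24 and 11.14 in control CD34- arrays against 10.77, 10.88, 10.89 and 10.91 in CD70TG CD34- arrays. The CD34+ values were 11.29, 11.22, 11.13 and 11.09 in control against 10.97, 10.81, 10.91 and 10.68 in CD70TG mice. Every control array lay above every CD70TG array of its fraction. The difference was -0.40 ± 0.09 (SE, 95% interval -0.59 to -0.20) in CD34- and -0.34 ± 0.09 (-0.54 to -0.14) in CD34+ arrays. Both lay past the threshold, as did 25.9% and 16.1% of all probes, which is given as a description only. Between fractions it was -0.08 (-0.27 to 0.12) in control and -0.02 (-0.22 to 0.18) in CD70TG mice. Myd88 correlated with the index at r = -0.84 across arrays and -0.25 with group means removed. With the index as a covariate the differences were -0.31 in CD34- and -0.28 in CD34+ arrays, within the spread between replicates of those without it, and neither passed. The call in CD34+ arrays was also lost without replicate 1 or 2 of control CD34+ or replicate 4 of CD70TG CD34+. The mean level of 16 long-term HSC genes was also lower in CD70TG mice (8.92 against 8.06 in CD34- and 8.82 against 7.86 in CD34+ arrays), and that of 11 myeloid granule genes was higher (9.26 against 10.64 and 9.07 against 10.14), with control given first. Averaged over fractions, 12 of the 16 passed as lower and 2 as higher. Of the 11, 9 passed as higher and 1 as lower, where 36.6% of all probes passed. The part of these genes was not tested. Over all members 2 of 7 probes passed between genotypes in CD34- arrays, 1 in CD34+ arrays and 3 on the average, where 25.9%, 16.1% and 36.6% of all probes did, and nothing is read from these counts, since the same contrasts chose the genes.

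Genes whose level followed a member most closely over the 16 arrays were found by Pearson's r, as a description, since all probes share the 4 groups and the arrays. For Il18r1 they were Ackr1 (r = 0.99), the atypical chemokine receptor, Lpxn (0.98), which encodes the adhesion adaptor leupaxin, and Rassf4 (0.98). Their differences between fractions in control mice were 2.71, 2.55 and 1.17. With group means removed none of the 3 stayed close (r = -0.14, 0.27 and 0.31). For Myd88 they were Il4 (0.93), which encodes interleukin-4, Ormdl3 (0.93), a regulator of sphingolipid synthesis, and Car2 (0.92), which encodes carbonic anhydrase 2. All 3 were lower in CD70TG arrays averaged over fractions, by -1.35, -0.60 and -0.79. For Il18rap the closest were Sgk3 (0.84), Nkapd1 (0.81) and Pcdhgb6 (0.80), for Il1r1 probe 1 Mfsd4b1 (0.89), Acyp2 (0.87) and Olfr352 (0.85), and for Il1rap probe 1 Unc13c, Ltk and Rtn4r (0.75, 0.74 and 0.73).

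The ligand gene Il18 was lower in the CD34+ fraction, where Il18r1 was higher, and it was lower in CD70TG mice. Its gene list and those below were chosen with earlier results of these data known, so their counts and p-values are a description. Il18 read 9.25, 8.90, 9.25 and 9.23 in control CD34- arrays and 8.81, 8.46, 8.54 and 8.49 in control CD34+ arrays. In CD70TG mice it read 8.65, 8.89, 8.54 and 8.86 in CD34- arrays and 7.28, 7.57, 7.52 and 7.54 in CD34+ arrays. The CD70TG CD34+ arrays were the lowest, with no overlap with any other group. Il18 was lower in the CD34+ fraction by -0.58 ± 0.12 (SE, limma, adjusted p = 0.00525) in control mice and by -1.26 ± 0.12 (adjusted p = 8.67e-07) in CD70TG mice. It was lower in CD70TG than in control arrays by -0.42 ± 0.12 in CD34- (adjusted p = 0.0139) and by -1.10 ± 0.12 in CD34+ arrays (adjusted p = 4.11e-06). The difference of the genotype effect between fractions was -0.67 (95% interval -1.03 to -0.32), which missed the threshold (adjusted p = 0.163). The genotype difference in CD34- arrays was lost with the index (adjusted p = 0.586, range over 23 alternatives 0.00172 to 0.586) and without replicate 3 of CD70TG CD34- (0.0586), while the other 3 passed in all 23. Macrophages make Il18. The mean level of 13 tested macrophage markers was 7.15 in control CD34-, 8.21 in CD70TG CD34-, 6.64 in control CD34+ and 6.90 in CD70TG CD34+ arrays, so these markers moved with Il18 between fractions and against it between genotypes, and their part was not tested.

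Of the other ligands Il1b, Il1rn, the natural IL-1 antagonist, and Il1f10 were tested, and none passed in any comparison by limma. At an unadjusted p under 0.05 stood Il1rn alone, 0.19 higher in CD70TG CD34- than in control CD34- arrays and -0.25 between the fractions of CD70TG mice, beside its average over fractions. Il1b lay at 6.35 to 6.47 as a group mean, close to background. Il1a and Il33 did not rise above background on enough arrays to be tested. None of 4 tested decoys and further receptors passed by limma, and an unadjusted p under 0.05 was reached by Sigirr between genotypes in CD34+ arrays and on the average and between fractions of CD70TG mice, and by Il1r2 between fractions of control mice. Il1r2, the decoy receptor that binds IL-1 without signalling, had group means of 7.94, 7.96, 7.41 and 7.60, and its difference between fractions in control mice was -0.53 (95% interval -0.94 to -0.11, adjusted p = 0.124 in limma). Sigirr, an inhibitory receptor of the family, had group means of 7.06 to 7.40. The secreted IL-18 antagonist Il18bp differed by -0.04 (-0.27 to 0.19) between fractions of control mice.

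Part of the NF-kB genes were higher in the fraction in which Il18r1 was high. Of 15 tested NF-kB subunits and feedback inhibitors 6 rose in CD34+ arrays of control mice and none fell, and 7 rose in CD70TG mice and none fell. This list too was chosen with earlier results of these data known, so the counts are a description. Among all 10905 tested named genes 3.66% rose and 4.08% fell in control mice, and 1.49% rose and 4.33% fell in CD70TG mice. At an unadjusted p under 0.05 the falls numbered 1 in control (Rela) and 0 in CD70TG mice. The median difference of the list was 0.30 and 0.11 against -0.004 and -0.02 for all named genes. Nfkb2, which encodes the p100 precursor of p52, read 7.79, 7.36, 7.75 and 8.001 in control CD34- arrays against 9.22, 9.03, 9.02 and 9.35 in control CD34+ arrays. In CD70TG mice it read 7.65, 7.51, 7.85 and 7.73 against 9.58, 9.40, 9.44 and 9.70. Neither pair of groups overlapped. Its difference was 1.43 ± 0.13 (SE, limma, adjusted p = 1.14e-06) in control and 1.84 ± 0.13 (adjusted p = 1.78e-08) in CD70TG mice.

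Tnfaip3, which encodes the ubiquitin-editing inhibitor A20, read 9.32, 8.99, 9.35 and 9.04 in control CD34- arrays against 10.59, 10.13, 10.18 and 10.60 in control CD34+ arrays. In CD70TG mice it read 9.29, 9.05, 9.07 and 9.44 against 10.45, 10.32, 10.41 and 10.43. Its difference between fractions was 1.20 ± 0.13 in control and 1.19 ± 0.13 in CD70TG mice. Nfkbia, which encodes the inhibitor IkB-alpha, rose by 0.96 ± 0.15 and 1.16 ± 0.15, and Relb, the partner of p52, by 0.93 ± 0.14 and 1.16 ± 0.14. Bcl3, a nuclear cofactor of p50 and p52, rose by 0.84 ± 0.12 and 0.96 ± 0.12, and the inhibitor gene Nfkbie by 0.71 ± 0.16 and 0.90 ± 0.16. Tnip1, a partner of A20, made up the count in CD70TG mice (0.57 ± 0.16, adjusted p = 0.0399 in limma), and this call held in 13 of 23 alternatives with adjusted p from 0.00273 to 0.16. The other calls held in all 23, apart from Nfkbie in control mice (adjusted p = 0.0614 with the index, range 0.0017 to 0.0614). The subunits Rel (0.07 and 0.11) and Rela (-0.24 and -0.11) did not pass. Of the other Tnip1 probes, 1 rose by 0.53 in control (adjusted p = 0.00136 in limma) and by 0.18 in CD70TG mice (adjusted p = 0.383). The other rose by 0.46 and 0.59. The fall of macrophage and neutrophil markers between the same arrays is given above, and its part in these rises was not tested.

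**Figure D4:**
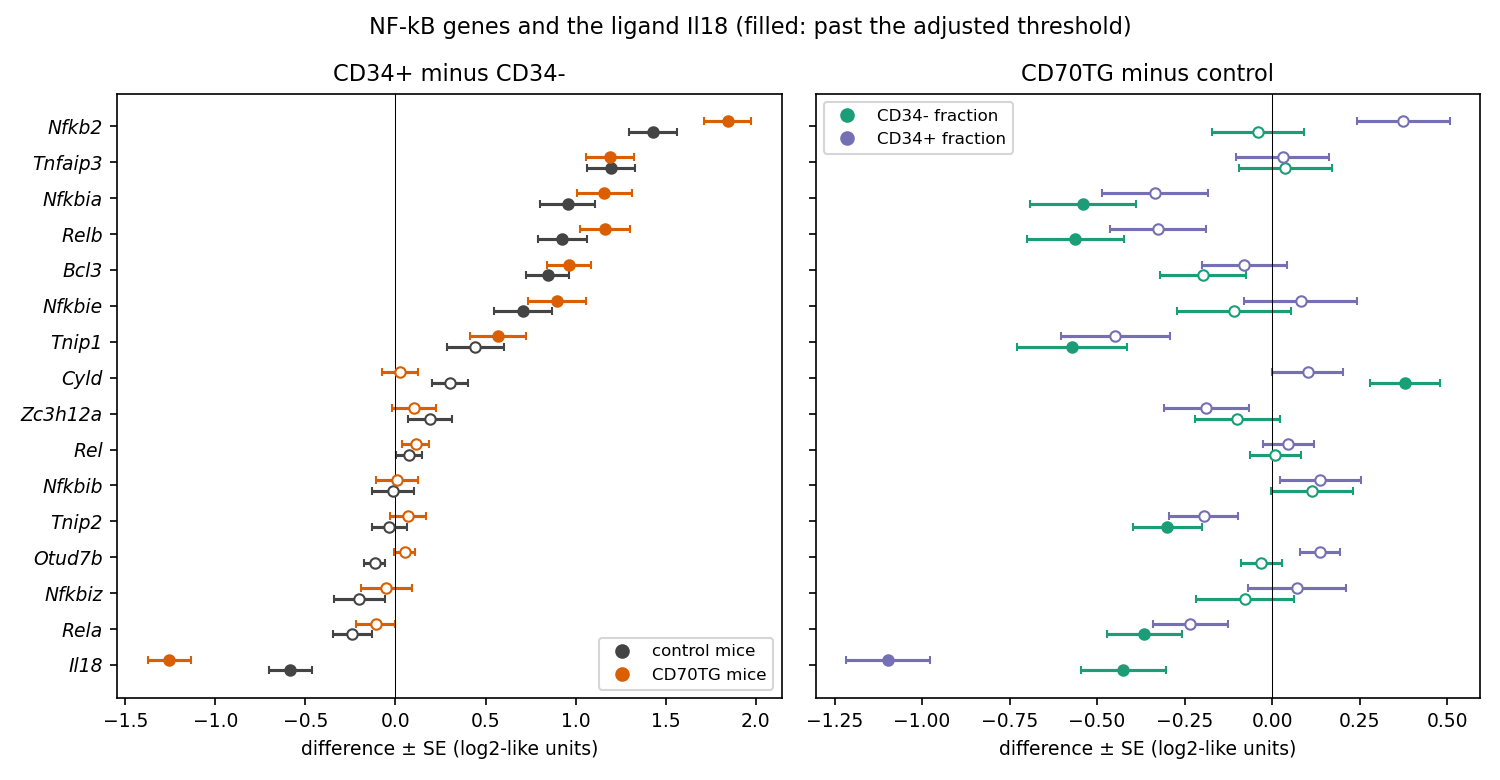
Differences ± SE (log2-like units, limma, n = 4 arrays a group) of 15 tested NF-kB genes and Il18, between fractions (left) and between genotypes (right), with filled points for those past the adjusted threshold of 0.05. Nfkb2, Tnfaip3, Nfkbia, Relb, Bcl3 and Nfkbie are higher in CD34+ arrays of both genotypes, and Il18 is lower in all 4 comparisons.

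Between genotypes the same list went mostly down in CD34- arrays, where 1 of 15 rose and 5 fell, and in CD34+ arrays 0 passed by limma in either direction (2 higher and 4 lower at an unadjusted p under 0.05). Among all named genes 15.7% rose and 11.7% fell in CD34- arrays and 7.18% rose and 10.5% fell in CD34+ arrays. The 5 that fell in CD34- arrays were Tnip1 (-0.57 ± 0.16, SE), Relb (-0.56 ± 0.14), Nfkbia (-0.54 ± 0.15), Rela (-0.36 ± 0.11) and Tnip2 (-0.30 ± 0.10), and Cyld, a deubiquitinase, rose by 0.38 ± 0.10. With the index as a covariate none of these 6 passed, and their differences were then -0.22, -0.43, -0.27, -0.06, -0.19 and 0.21 in the same order. Leaving out 1 array also ended the call of Rela in 4 such fits, of Tnip2 in 5 and of Nfkbia in 2. The counts take each gene by its tested probe with the highest mean, and the probes of Tnip1 disagreed. Of its other probes, 1 differed by -0.05 in CD34- and by -0.39 in CD34+ arrays (adjusted p = 0.00684 in limma). The other differed by -0.48 and -0.35.

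Of 21 tested adaptors and kinases next to Myd88, 2 rose and 1 fell in CD70TG CD34- arrays, and 1 rose and 1 fell in CD34+ arrays. Among all named genes 15.7% rose and 11.7% fell in CD34- arrays and 7.18% rose and 10.5% fell in CD34+ arrays. Of the 21, 0 passed by limma between fractions in either genotype (at an unadjusted p under 0.05, 4 higher and 0 lower in control and 1 higher and 1 lower in CD70TG mice). Among all named genes 3.66% rose and 4.08% fell in control mice, and 1.49% rose and 4.33% fell in CD70TG mice. Ticam2, the bridging adaptor of Tlr4 that leads to the TRIF branch, read 8.17, 7.95, 8.29 and 8.17 in control CD34- arrays against 8.97, 8.65, 8.80 and 8.84 in CD70TG CD34- arrays. Its CD34+ values were 8.63, 8.46, 8.55 and 8.53 against 9.39, 9.01, 9.42 and 8.97. Every CD70TG array was higher than every control array of its fraction. The difference was 0.67 ± 0.12 (limma, adjusted p = 0.00053) in CD34- and 0.65 ± 0.12 (adjusted p = 0.000945) in CD34+ arrays, and only the index among 23 alternatives took these calls away (adjusted p = 0.27, range 0.000239 to 0.27, and 0.0775, range 0.000209 to 0.0775). Irak3, the kinase-dead IRAK that restrains MyD88 signalling, fell in CD34+ arrays by -0.58 ± 0.13 (limma, adjusted p = 0.00506) in all 23 alternatives, from 10.73 ± 0.14 (SD) to 10.15 ± 0.14. Traf6 (0.34 ± 0.12 in CD34- arrays) held in 7 of 23 alternatives, and its other probes differed by -0.11 and 0.44. The counts take each gene by its tested probe with the highest mean. The Traf6 probe at -0.11 passed by limma in CD34+ arrays (0.29, adjusted p = 0.0355). Between fractions of control mice it passed as lower (-0.38, adjusted p = 0.0145 in limma). A further Ube2n probe was 0.74 higher in CD70TG CD34- arrays (adjusted p = 0.00175 in limma).

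Of the genes that process IL-18 and IL-1, Casp1 encodes the enzyme that cuts both precursors. It was bright in all groups (11.85 to 12.30 as a group mean) and did not pass in any of the 4 comparisons. Casp1 was higher in CD34+ than in CD34- arrays of control mice by 0.23 ± 0.10 (SE, limma, adjusted p = 0.186). In CD70TG mice this difference was 0.34 ± 0.10 (adjusted p = 0.0626). Between genotypes Casp1 was lower in CD70TG CD34- arrays by -0.22 ± 0.10 (adjusted p = 0.121). In each of these comparisons the groups did not overlap. In CD34+ arrays the genotype difference was -0.11 ± 0.10, and the groups overlapped. Casp4, the mouse caspase-11 gene, was higher in CD34+ arrays by 0.75 ± 0.15 (limma, adjusted p = 0.00372) in control and 0.56 ± 0.15 (adjusted p = 0.0316) in CD70TG mice. The latter was lost without replicate 1 or 3 of CD70TG CD34- or replicate 2 or 4 of CD70TG CD34+ (adjusted p 0.00159 to 0.126). A further Casp4 probe gave 0.74 and 0.77 between fractions, and the other 0.51 and 0.32. Between genotypes Casp4 was lower in CD70TG CD34+ arrays by -0.48 ± 0.15 (limma, adjusted p = 0.033), which held in 16 of 23 alternatives. Its other probes differed there by -0.25 and 0.18 and did not pass. In CD34- arrays its difference was -0.29 ± 0.15 and did not pass. Gsdmd, which encodes the pore-forming gasdermin D, was lower in CD70TG arrays by -0.43 ± 0.12 in CD34- and -0.55 ± 0.12 in CD34+ arrays, both lost with the index. Its other probes gave smaller differences, -0.13 and -0.03 in CD34- and -0.03 and -0.02 in CD34+ arrays, and did not pass. Nlrp3 was above background on no array.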

How the data were processed

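RNA of sorted cells was amplified in 2 rounds, labelled with biotin and hybridised to Illumina arrays, per the labels' protocols. The authors deposited log2-like values for 25697 probes on 16 arrays. Their log base, background correction and normalization are not given in the sources that were used. A second table (32 columns for 16 arrays) was left out, because no column name fits a sample's labels. Members and gene lists were chosen with earlier results of these data known.

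Probes were named from GEO's platform annotation, with symbols brought up to date by gene number (23978 probes with 1 symbol, 0 with several, 1719 with none). A probe was tested if its value exceeded the array's mode by 1.64 SD of the background on at least 4 arrays. Each of 15551 such probes was fitted on its own with limma 3.58.1 in R 4.3.3 (lmFit on 4 group means, eBayes with a trend, 12 residual degrees of freedom), with Benjamini-Hochberg adjustment over all of them and a threshold of 0.05. In counts over lists and over named genes, a gene stood by its tested probe with the highest mean. Replicates are independent pools of mice, and no pair of arrays shared over 0.288% identical values. Pathway genes are named by rule: up to 4 called members of a list per comparison with the smallest p, and any listed ligand, receptor or adaptor. The fit was tested on simulated arrays. Alternatives were quantile normalization, no filter, a stricter filter (3 SD on all 4 arrays of a group), 1 probe per gene, the replicate number as a block, array weights, the probe discordance index as a covariate, and leaving out each array. Motifs were searched with Python 3.11.15.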

Additional observations from a re-analysis of the deposited data

Results flagged for a closer look

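In 3 of 44 sets of a probe and a group, 1 array stood far from the other 3; chance gives about 1 in 20. Il1r1 probe 1 read 7.09 on replicate 1 of control CD34+, against 7.40 to 7.43 on the others. Il1r1 probe 2 read 5.96 on replicate 2 of CD70TG CD34-, against 8.16 to 8.54. Il1rap probe 6 read 6.14 on replicate 4 of control CD34+, against 6.05 to 6.07, all below the background limit.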

How the results depend on the processing

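Of 42 differences of the member probes, 936 values under alternatives were computed. Of these 928 moved by less than the spread between replicates, 6 moved by more and 2 reversed, and the call changed in 38. Both reversals were Il1r1 probe 2 with the index as a covariate, at -0.95 in CD34- arrays and -0.75 averaged over fractions. Il18r1 between fractions ranged from 3.94 to 4.14 in control and 3.43 to 3.70 in CD70TG mice when 1 array was left out. Over all probes, calls between genotypes went with the index from 4033 to 727 in CD34-, from 2503 to 1039 in CD34+ and from 5685 to 1104 on the average. Array weights gave 3972 calls between genotypes in CD34+ and 1531 instead of 785 between fractions of CD70TG mice. The cause was not tested. Leaving out 1 array gave 1612 to 3283 calls between genotypes in CD34+ arrays and 699 to 1373 between fractions of control mice, where the main count was 1110. Quantile normalization turned 2392 higher and 1641 lower probes between genotypes in CD34- arrays into 2041 and 2351. Same-numbered replicates did not deviate together (9 of 24 pairs above r = 0.1, from -0.33 to 0.65, and 1 array closest to its own number in every other group). With the replicate block, calls numbered 4144, 2848, 5762, 1232, 819 and 48 for genotype in CD34-, in CD34+ and averaged, fraction in control and in CD70TG mice, and genotype by fraction. Background correction with limma's neqc was not run, because the columns of the other table match no label. Values near background are compressed, which limits Il1rap, Il1r1 probe 2 and Il18rap.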

Other observations

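Toll-like receptors, which also signal through Myd88, differed between the groups in their own ways. Of 12 tested receptors and co-receptors 0 rose and 2 fell in CD34+ arrays of control mice, and 0 rose and 4 fell in CD70TG mice, by limma. At an unadjusted p under 0.05, 1 was higher in each genotype (Ly96 and Tlr12). By limma, among all named genes 3.66% rose and 4.08% fell in control mice, and 1.49% rose and 4.33% fell in CD70TG mice. Tlr7, the endosomal receptor of single-stranded RNA, read 9.58, 8.94, 9.54 and 9.54 in control CD34- arrays against 7.67, 7.91, 8.22 and 7.70 in control CD34+ arrays. In CD70TG mice it read 9.41, 9.34, 9.33 and 9.75 against 7.94, 8.20, 8.46 and 8.28. Its difference was -1.52 ± 0.16 (SE, limma, adjusted p = 5.83e-06) in control and -1.24 ± 0.16 (adjusted p = 4.55e-05) in CD70TG mice. Tlr4, the receptor of bacterial lipopolysaccharide, was lower in CD34+ arrays by -0.41 ± 0.11 (limma, adjusted p = 0.0232) and -0.43 ± 0.11 (adjusted p = 0.0189). The first call was lost without replicate 2 of control CD34- or replicate 3 of control CD34+, and the second with quantile normalization and without replicate 1 or 3 of CD70TG CD34- or of CD70TG CD34+, with adjusted p up to 0.077 and 0.0767.

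Ly86, which encodes MD-1, the partner of the co-receptor Cd180, read 7.24, 7.24, 6.99 and 7.52 in control CD34- arrays against 8.05, 8.14, 7.87 and 8.13 in CD70TG CD34- arrays. Its CD34+ values were 6.66, 7.04, 6.96 and 6.44 against 7.99, 7.94, 8.50 and 7.41. The differences were 0.80 ± 0.18 (limma, adjusted p = 0.00323) and 1.18 ± 0.18 (adjusted p = 0.000156), and they passed in all 23 alternatives. Tlr2, the receptor of bacterial lipopeptides, was lower in CD70TG arrays by -0.48 ± 0.15 and -0.64 ± 0.15, but not with the index. Cd14 was higher in CD70TG CD34- arrays by 0.57 ± 0.10 (adjusted p = 0.000547 in limma). Markers of macrophages, which express Cd14, were higher in the same arrays (8.21 against 7.15), and their part was not tested.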
